A study of Bos taurus with 10 samples.

Results

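Transcripts of 6 genes chosen as striated muscle transcripts were followed library by library in a study of cattle fat: SYNPO2L, LRRC30, GADL1, CHRNA1, MYMK and ENSBTAG00000052709. The last carries no symbol or description, and its role is not known from the table. They were chosen by name or Ensembl identifier, with their levels in these libraries already known, and are 6 of the 12674 genes with values. The study sequenced total RNA of intramuscular fat (marbling, the fat between muscle fibres) and subcutaneous fat (under the skin) of 5 adult female Angus-cross heifers, with 5 libraries per depot and no treatment given in the labels. Libraries with the same number (1 to 5) in both depots were taken as the same animal. All were whole adipose tissue. The labels do not say how the fat was freed from muscle. The counts summed to 9392739 to 14836808 in intramuscular and 13776094 to 17685678 in subcutaneous libraries. Levels are CPM, counts scaled to library size with TMM factors, and ± is the SD over 5 libraries. In whole tissue, fewer cells of a type and less RNA per cell cannot be told apart.

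Skeletal muscle is made of long fibres formed when myoblasts fuse. The fibres hold sarcomeres, contractile units anchored at their ends in Z-discs, and are driven by motor nerves through acetylcholine receptors clustered at the neuromuscular junction. Muscle also stores carnosine, a dipeptide built from beta-alanine. The named genes touch several of these roles. SYNPO2L encodes an actin-binding protein of the Z-disc. GADL1 is a decarboxylase that can make beta-alanine. CHRNA1 is the acetylcholine-binding subunit of the muscle receptor, and MYMK (myomaker) is a membrane protein needed for myoblast fusion. LRRC30 encodes a leucine-rich repeat protein.

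Of the 6 genes, 4 separated the depots, and CHRNA1 and MYMK overlapped between them. In ENSBTAG00000052709, SYNPO2L, GADL1 and LRRC30 all 5 intramuscular libraries lay above all 5 subcutaneous ones. Of the 12521 genes tested, 7.85% had that pattern and 5.04% the reverse. As this contrast chose the genes, nothing is read from the count, and no test is given for any of the 6. All 6 passed the filter on low counts. The contractile proteins that define a muscle fibre could not be set beside them, because none of the 26 genes of the myofibre contractile list had values, and they were not analysed here.

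ENSBTAG00000052709 had the highest level of the 6. The deposited table lists it as protein-coding on chromosome 2, 18333414 to 18335770, plus strand, with 1329 bases of exon and no description. It measured 6708, 1562, 2631, 721 and 765 CPM in intramuscular replicates 1 to 5. In subcutaneous replicates 1 to 5 it had 2, 0, 9, 9 and 0 counts, or 0.129, 0, 0.559, 0.529 and 0 CPM. Every intramuscular library was thus above every subcutaneous one, and replicate 1 stood far above the other 4 intramuscular libraries. In that library the gene took 71656 counts, which was 0.763% of all counts listed (exact 95% binomial interval 0.757 to 0.768%, counting error only). It was at rank 2 among the genes with values, which include none of the myofibre contractile list. In replicates 2 to 5 its shares were 0.169, 0.285, 0.0730 and 0.0763%, at ranks 49, 19, 179 and 169. The mean was 2477 ± 2489 CPM in intramuscular and 0.243 ± 0.279 CPM in subcutaneous fat, and the intramuscular mean was 1420 CPM without replicate 1 and 1016 CPM without replicates 1 and 3.

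The place of this gene was read from its neighbours. The nearest listed genes are CCDC141, 312.7 kb below, and PLEKHA3, 52.4 kb above. RefSeq's gene table of assembly ARS-UCD2.0 names 2 protein-coding genes between CCDC141 and PLEKHA3, which are LOC112442545 and TTN. TTN encodes titin, the giant elastic protein that spans the sarcomere from the Z-disc. No label or header names the build of the deposited coordinates, and the interval itself was not compared with TTN. The 6 genes were matched to RefSeq by symbol, which found 5. This gene has no symbol in the deposited table and so could not be matched that way. Whether the reads come from a titin transcript was not tested.

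SYNPO2L, the Z-disc gene (ENSBTAG00000021132, chromosome 28, 29626166 to 29634566, minus strand, 3529 bases of exon), measured 353, 99.0, 170.2, 52.9 and 51.1 CPM in intramuscular replicates 1 to 5. Its subcutaneous counts were 0, 2, 0, 2 and 0. Intramuscular replicate 1 was the highest and replicates 4 and 5 the lowest, with no overlap between depots. The intramuscular mean of 145 CPM was 93.3 CPM without replicate 1 and 67.6 CPM without replicates 1 and 3. The ratio of pooled CPM was 2559 (95% exact interval 999 to 9395, counting error only), and the width of that interval comes from only 4 subcutaneous counts.

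GADL1, the decarboxylase (ENSBTAG00000007131, chromosome 22, 5209250 to 5403422, minus strand, 3516 bases of exon), measured 201.6, 66.3, 83.0, 22.6 and 43.5 CPM in intramuscular replicates 1 to 5. Subcutaneous replicate 4 held 4 counts (0.235 CPM) and the other 4 subcutaneous libraries held 0. Replicate 1 was again highest, and replicate 4 was lowest, apart from replicate 5 by more than their counting intervals (299 to 372 against 595 to 696 counts). The depots did not overlap. The intramuscular mean of 83.4 CPM was 53.9 CPM without replicate 1 and 44.2 CPM without replicates 1 and 3. The ratio of pooled CPM was 1473 (575 to 5409).

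LRRC30, the leucine-rich repeat gene (ENSBTAG00000046046, chromosome 24, 40126526 to 40129341, plus strand), has a listed exon length of 2816 bases, equal to its span, so no intron is listed. It measured 33.0, 16.7, 16.4, 4.95 and 7.30 CPM in intramuscular replicates 1 to 5, from 353, 227, 224, 73 and 108 counts. It had 0 counts in all 5 subcutaneous libraries, against a floor of 3 counts over the depot, or 0.0390 CPM. Replicate 1 was highest and replicate 4 lowest, and the counting intervals of replicates 2 and 3 overlapped. Its mean of 15.7 CPM was at least 402-fold higher than that floor.

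**Figure D1:**
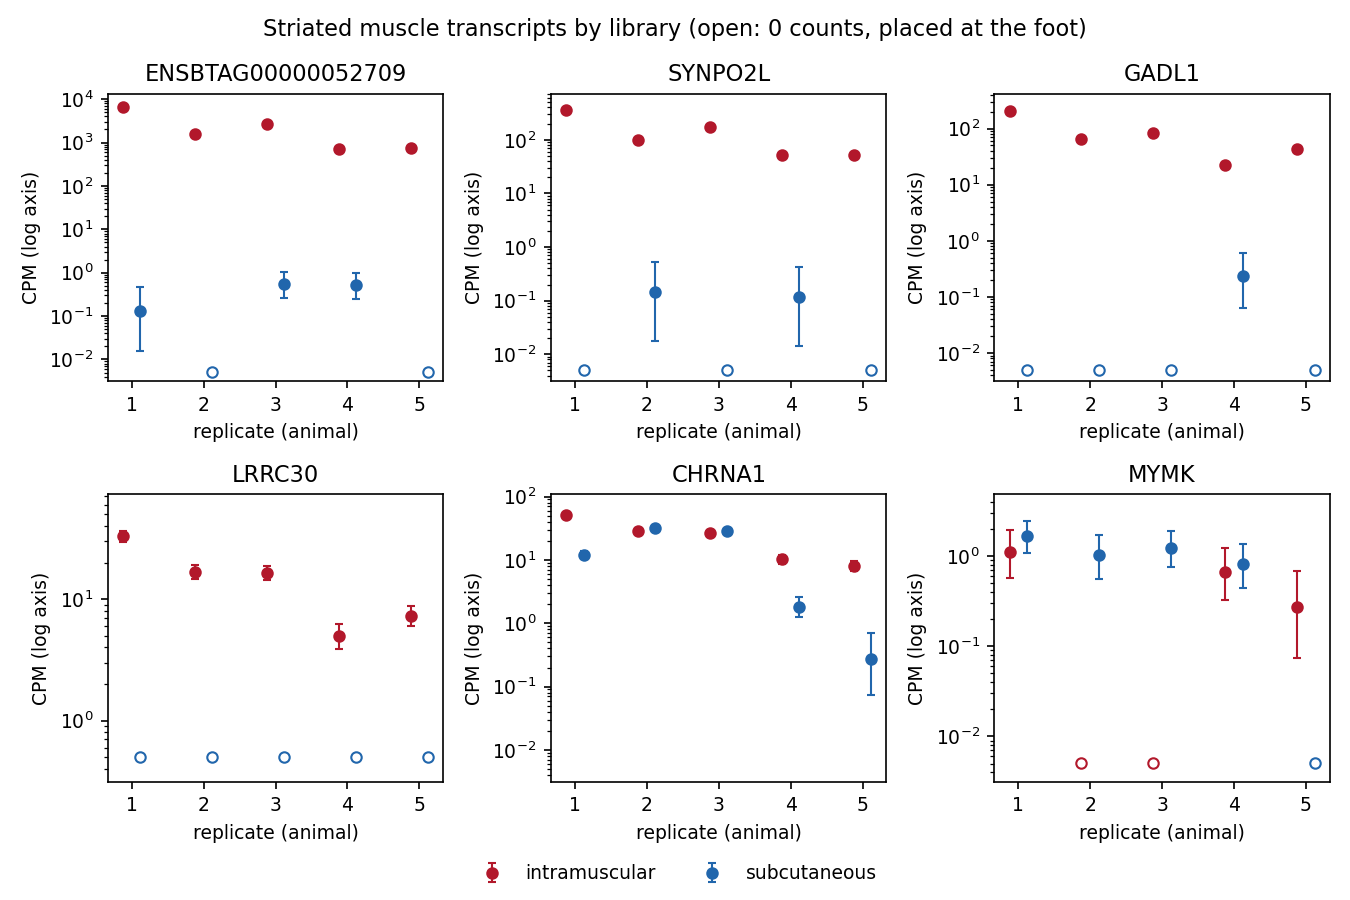
CPM (log axis) of each gene in each library against replicate number, with red for intramuscular and blue for subcutaneous fat. Bars are exact 95% Poisson intervals of the counts, and open points are libraries with 0 counts, drawn at the foot of the panel. The depots do not overlap for ENSBTAG00000052709, SYNPO2L, GADL1 and LRRC30, while CHRNA1 runs from 8.04 to 50.5 CPM in intramuscular and from 0.272 to 32.0 CPM in subcutaneous fat, and MYMK stays below 1.7 CPM.

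CHRNA1, the receptor subunit (ENSBTAG00000018253, chromosome 2, 22084295 to 22103950, plus strand, 3717 bases of exon), was present in both depots. It measured 50.5, 28.7, 26.8, 10.2 and 8.04 CPM in intramuscular replicates 1 to 5 and 12.0, 32.0, 28.5, 1.82 and 0.272 CPM in subcutaneous replicates 1 to 5. In both depots the lowest 2 libraries were those numbered 4 and 5. The subcutaneous libraries spanned a 117-fold range, from 4 counts in replicate 5 to 436 and 459 counts in replicates 2 and 3, and the intramuscular libraries a 6.27-fold range. The means were 24.9 ± 17.1 and 14.9 ± 14.7 CPM, a ratio of 1.67, smaller than the spread within either depot. By animal, the intramuscular library was the higher one in 3 of 5 pairs (1, 4 and 5). Subcutaneous replicates 2 and 3, with 32.0 and 28.5 CPM of CHRNA1, had 2 and 0 counts of SYNPO2L, 0 and 9 counts of ENSBTAG00000052709, 14 and 20 counts of MYMK and 0 counts each of GADL1 and LRRC30.

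Other nicotinic receptor genes were followed over the same libraries. CHRNB1, the beta subunit of the muscle receptor, measured 10.8, 8.14, 9.75, 21.7 and 6.12 CPM in subcutaneous replicates 1 to 5. CHRNE, the epsilon subunit of the adult receptor, measured 11.8, 6.16, 11.3, 5.87 and 8.71 CPM there. Neither fell below 5.87 CPM in any subcutaneous library, where CHRNA1 reached 0.272 CPM. In intramuscular replicates 1 to 5 CHRNB1 measured 58.6, 22.1, 28.2, 11.3 and 10.2 CPM, highest in replicate 1 and lowest in replicates 4 and 5, as CHRNA1 was. Their depot differences did not pass the test (log2 fold changes of 1.20 ± 0.47 and 0.81 ± 0.36, ± SE, edgeR adjusted p = 0.109 and 0.150). DESeq2 gave CHRNB1 an adjusted p of 0.0470. CHRNA3, a subunit of neuronal receptors, was highest in subcutaneous replicate 2, at 28.7 CPM, with 3.23, 9.50, 6.81 and 4.49 CPM in replicates 1, 3, 4 and 5. CHRNA5, another neuronal subunit, measured 0.858 ± 0.779 CPM in intramuscular and 1.02 ± 0.511 CPM in subcutaneous fat. The delta and gamma subunits had no values and were not analysed here.

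MYMK, the fusion gene (ENSBTAG00000013242, chromosome 11, 104400006 to 104408077, minus strand, 1291 bases of exon), was near the limit of detection in both depots. It had 12, 0, 0, 10 and 4 counts in intramuscular replicates 1 to 5 and 26, 14, 20, 14 and 0 counts in subcutaneous replicates 1 to 5. In CPM these were 1.12, 0, 0, 0.678 and 0.270 in intramuscular and 1.68, 1.03, 1.24, 0.822 and 0 in subcutaneous libraries. The subcutaneous library was the higher one in 4 of 5 pairs, and the depots overlapped. A count of 0 allows up to 0.220 and 0.219 CPM in intramuscular replicates 2 and 3 and 0.204 CPM in subcutaneous replicate 5. The means were 0.414 ± 0.484 CPM in intramuscular and 0.954 ± 0.620 CPM in subcutaneous fat, so the subcutaneous mean was the higher one, by less than its own SD. Intramuscular replicate 1, richest in the other 5, had a counting interval of 0.580 to 1.96 CPM for MYMK, which holds the values of subcutaneous replicates 1 to 4.

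Per kilobase of listed exon, the order in intramuscular fat was ENSBTAG00000052709, SYNPO2L, GADL1, CHRNA1, LRRC30 and MYMK, with mean levels of 1864, 41.1, 23.7, 6.69, 5.56 and 0.321 CPM per kb. Each stood above the next in all 5 libraries, except that CHRNA1 stood above LRRC30 in 4 of 5. The step from ENSBTAG00000052709 to SYNPO2L was 45.3-fold, and their ranges did not overlap. The ranges of the next 3 steps overlapped, because library differences were larger than these steps, and that between CHRNA1 and LRRC30 was 1.20-fold. In subcutaneous fat CHRNA1 came first, at 4.01 ± 3.97 CPM per kb, and MYMK was second, at 0.739 ± 0.481. ENSBTAG00000052709 followed at 0.183 ± 0.210 CPM per kb.

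Within intramuscular fat, 5 of the genes shared much of their range over the libraries. All 5 were highest in replicate 1, and lowest in replicate 4 or replicate 5. MYMK was also highest in replicate 1, but its 12, 0, 0, 10 and 4 counts are too few to compare its profile with theirs. The highest library exceeded the lowest 9.30-fold for ENSBTAG00000052709, 8.91-fold for GADL1, 6.91-fold for SYNPO2L, 6.68-fold for LRRC30 and 6.27-fold for CHRNA1. Most of this range was shared with ENSBTAG00000052709. SYNPO2L was 5.26, 6.34, 6.47, 7.33 and 6.67% of the ENSBTAG00000052709 level in replicates 1 to 5, a 1.39-fold range. The log2 of that ratio had an SD of 0.17, against 1.18 for log2 CPM of SYNPO2L itself. The ratios of GADL1, LRRC30 and CHRNA1 to ENSBTAG00000052709 ranged 1.89-, 2.17- and 2.44-fold, with log2 SDs of 0.39, 0.46 and 0.49. Against the summed CPM of the 7 striated muscle lists given below, ratios ranged more widely. For SYNPO2L, GADL1, LRRC30, CHRNA1 and ENSBTAG00000052709 those ranges were 2.64-, 3.37-, 2.78-, 2.98- and 3.52-fold. Their log2 SDs were 0.61, 0.65, 0.61, 0.65 and 0.76.

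The ratios to ENSBTAG00000052709 also show where the 5 genes parted. GADL1 stood at 5.69% of ENSBTAG00000052709 in replicate 5 and 3.01 to 4.25% in the other libraries. LRRC30 and CHRNA1 were relatively highest in replicate 2 (1.07 and 1.84%) and lowest in replicate 1 (0.493 and 0.752%). ENSBTAG00000052709 therefore differed more between replicate 1 and the rest than the other 4 genes did. The 5 points of each ratio are too few for a correlation, and libraries share their scaling between numerator and denominator.

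**Figure D2:**
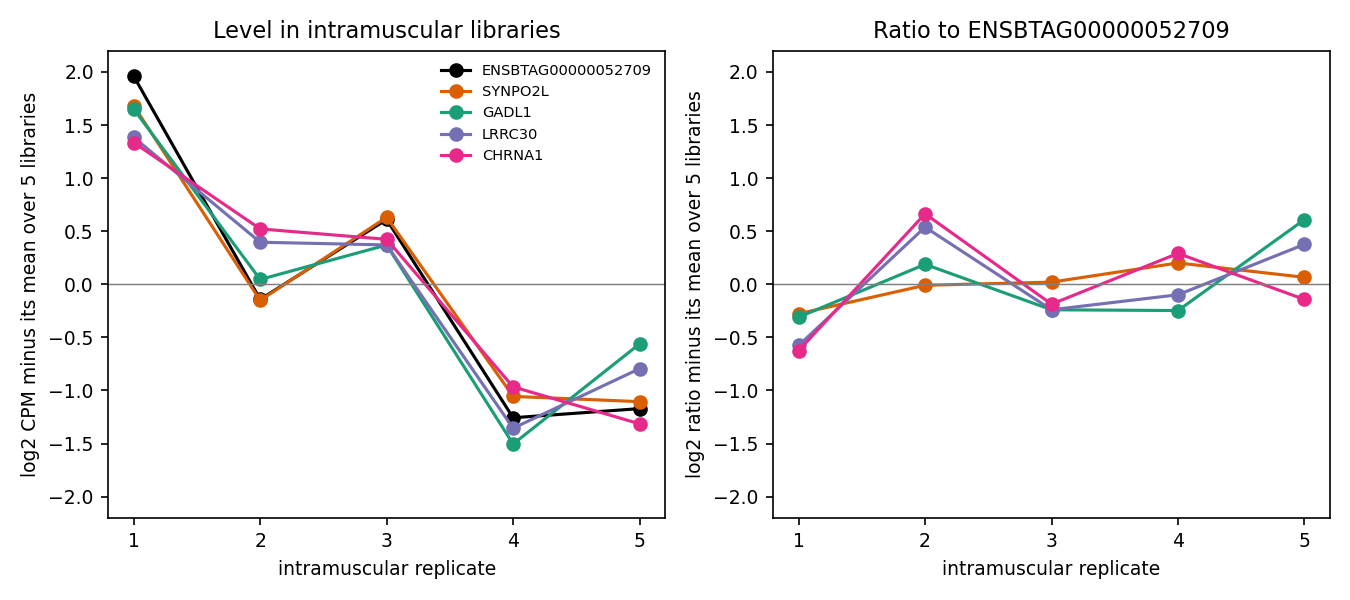
Left, log2 CPM of 5 genes in each intramuscular library, each centred on its own mean. Right, the log2 ratio of 4 of them to ENSBTAG00000052709 on the same scale, with lines only joining points of a gene. Levels are highest in replicate 1 and range 6.27- to 9.30-fold, while the ratios range at most 2.44-fold, and that of SYNPO2L 1.39-fold.

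The genes most like each member in intramuscular fat were ranked by the mean absolute difference of centred log2 CPM over the 5 libraries, among 12286 genes with a mean of at least 1 CPM there. For ENSBTAG00000052709, which itself deviated by 1.03 on average, they included the actin nucleator COBL at 0.08 and SYNPO2L at 0.12. For SYNPO2L (own deviation 0.92) they were CKMT2, the mitochondrial creatine kinase of striated muscle, at 0.05, TTC23L at 0.09 and PKIA, an inhibitor of protein kinase A, at 0.10. For GADL1 they were GMPR, a guanosine monophosphate reductase, at 0.10, PDE7A at 0.16 and KLHL38 at 0.18. COBL, CKMT2 and GMPR were at mean levels of 87.0, 312.6 and 59.4 CPM in intramuscular and 0.368, 0.774 and 2.77 CPM in subcutaneous fat. PKIA and KLHL38 measured 110.3 and 24.3 CPM against 11.2 and 1.72 CPM. Not all close genes differed so: TTC23L measured 2.22 against 1.75 CPM and PDE7A 2.98 against 0.646 CPM. Neither was called (edgeR adjusted p = 0.771 and 0.0858).

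Other genes were closest to the less abundant members. For LRRC30 the closest genes were CCDC18 (0.09), PLD4 (0.12) and IGDCC4 (0.13). CCDC18, PLD4 and IGDCC4 measured 2.15, 5.99 and 30.6 CPM in intramuscular and 2.14, 7.02 and 15.0 CPM in subcutaneous fat. KLHL38, also close to GADL1, ranked 5 for LRRC30. For CHRNA1 they were HOXD1 (0.10), the sodium-calcium exchanger SLC8A3 (0.13) and FAM184B (0.13). HOXD1, SLC8A3 and FAM184B measured 1.75, 10.4 and 5.31 CPM in intramuscular and 0.136, 2.11 and 0.380 CPM in subcutaneous fat. For MYMK the closest gene, GJC3, was 0.35 away, with a profile that rests on 26 counts in all. GADL1 ranked 15 for LRRC30, and LRRC30 ranked 14 for GADL1. ENSBTAG00000052709 ranked 10 for SYNPO2L, and SYNPO2L ranked 3 for ENSBTAG00000052709. Over the subcutaneous libraries, a ranking added after the values were seen, the gene closest to CHRNA1 was PRKG2 at 0.61, and PRKG2 measured 1.28 CPM there. CHRNA1 itself deviated by 2.23 on average over those libraries, against 0.90 over the intramuscular ones, so distances in the 2 depots are not on the same footing.

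The genes beside the 6 loci were followed next. None of the 12 nearest listed neighbours, 1 on each side, passed the test by edgeR, against a background of 12.2% of genes called. At an unadjusted p under 0.05 there were 2, a level whose share over all genes was not counted. DESeq2 called 2, and over all genes it called 1369 higher and 1171 lower. SEC24C, a coat protein of vesicle transport 4.79 kb from SYNPO2L on the opposite strand, measured 144.2 ± 12.9 against 148.3 ± 13.2 CPM (intramuscular against subcutaneous). TGFBR2, the type II TGF-beta receptor 24.9 kb from GADL1, measured 178.9 ± 5.34 against 226.9 ± 84.2 CPM. CHN1, 38.9 kb from CHRNA1, and ADAMTSL2, 10.5 kb from MYMK, had log2 fold changes of 0.78 ± 0.24 and 1.05 ± 0.33 (± SE) and edgeR adjusted p of 0.0515 and 0.0528. With the animal as a block these were 0.0462 and 0.0193, and with plain totals 0.0362 and 0.0316. CHN1 had adjusted p of 0.0463, 0.0348 and 0.0419 without intramuscular replicate 4, intramuscular replicate 5 or subcutaneous replicate 1, and ADAMTSL2 one of 0.0262 without subcutaneous replicate 1. No listed gene overlaps any of the 6.

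Other genes of striated muscle were followed through 7 lists that hold none of the 6. Of their 212 genes 64 had values and 63 were tested, and 27 were higher and 1 lower in intramuscular fat (edgeR's quasi-likelihood test, Benjamini-Hochberg adjusted p under 0.05). The background over all genes was 6.75% higher and 5.49% lower. The median log2 fold change was 1.05, against -0.04 over all genes. Without intramuscular replicates 1 and 3, which hold the most of these transcripts, 17 were higher and 0 lower. DESeq2 called 32 and 2, beside 1369 and 1171 over all genes. The counts at an unadjusted p under 0.05 given for the lists below have no share over all genes to set beside them, and nothing is read from them. The lists were written with earlier results of these data known, so their direction is not independent evidence.

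Among the Z-disc and costamere genes, the company of SYNPO2L, 3 had values, and XIRP1 and CAPZA2 rose. XIRP1, an actin-binding protein of striated muscle, measured 160.4, 68.9, 216.5, 31.0 and 77.1 CPM in intramuscular replicates 1 to 5 and 0.189 ± 0.355 CPM in subcutaneous fat (log2 fold change 9.17 ± 0.86, SE, edgeR adjusted p = 5.74e-05). It was highest in replicate 3, not in replicate 1. CAPZA2, an actin capping subunit also made outside muscle, measured 229.3 ± 52.7 against 147.3 ± 13.5 CPM (edgeR adjusted p = 0.0305). Its call was lost without intramuscular replicate 1, 3 or 4 or subcutaneous replicate 2, 3 or 5 in turn (0.0543 to 0.0734). NEBL measured 0.958 ± 0.431 against 0.664 ± 0.565 CPM (edgeR adjusted p = 0.612). SYNPO and SYNPO2, the relatives of SYNPO2L, had no values and were not analysed here.

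Of the 11 neuromuscular junction genes tested, the company of CHRNA1, 1 rose and 0 fell. At an unadjusted p under 0.05 by edgeR these were 4 and 0, and DESeq2 called 2 and 0. The median log2 fold change was -0.11, close to that of all genes. LRP4, the receptor through which agrin clusters acetylcholine receptors, rose from 4.68 ± 3.15 to 18.7 ± 5.85 CPM (edgeR adjusted p = 0.0384). Its call was lost without intramuscular replicate 1, 2, 3 or 5 or subcutaneous replicate 2, 3 or 4 in turn (0.0533 to 0.0835). Agrin itself (AGRN) measured 96.6 ± 23.7 against 106.7 ± 29.2 CPM, and utrophin (UTRN), a junctional relative of dystrophin that other tissues also make, 67.7 ± 13.9 against 48.2 ± 25.2 CPM, with edgeR adjusted p of 0.682 and 0.387.

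Of the 5 myogenic and fusion genes tested, the company of MYMK, 2 rose and 0 fell (3 and 0 at an unadjusted p under 0.05 by edgeR and by DESeq2), with a median of 1.24. JSRP1, a protein of the junctional sarcoplasmic reticulum in mature fibres, rose from 1.46 ± 1.31 to 105.9 ± 99.3 CPM (log2 fold change 6.17 ± 0.80, SE, edgeR adjusted p = 0.000529). It measured 280.7, 70.3, 87.0, 43.7 and 47.8 CPM in intramuscular replicates 1 to 5, the highest again in replicate 1. MEF2A, a transcription factor of muscle and many other cells, rose from 51.8 ± 7.79 to 87.6 ± 16.6 CPM (edgeR adjusted p = 0.0144, 0.0511 without intramuscular replicate 3). CDH15, the cadherin of muscle stem cells, measured 16.9 ± 10.6 against 8.53 ± 5.30 CPM, with an adjusted p of 0.175, or 0.0427 with the animal as a block. ADGRB1, an adhesion receptor, measured 3.28 ± 2.54 against 0.311 ± 0.534 CPM (0.0550, or 0.0189 with the animal as a block and 0.0147 without subcutaneous replicate 4). PAX7, MYF5, MYOD1, MYOG and MYMX, which define muscle stem cells and fusing myoblasts, had no values and were not analysed here.

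The enzymes and carriers of beta-alanine, taurine and carnosine, the company of GADL1, were mostly not called. Of 10 tested, 0 were higher and 1 was lower by edgeR (1 and 2 at an unadjusted p under 0.05, and 1 and 2 by DESeq2), with a median of -0.08. CSAD, a relative of GADL1 that decarboxylates cysteine sulfinate on the way to taurine, fell from 57.2 ± 6.28 to 38.7 ± 5.80 CPM (edgeR adjusted p = 0.0308). It lost its call without intramuscular replicate 1, 2, 3 or 4 or subcutaneous replicate 2, 3 or 5 in turn (0.0504 to 0.0784), and with plain totals (0.106). CNDP2, a peptidase of carnosine and other dipeptides, measured 98.0 ± 20.5 against 163.7 ± 56.5 CPM (edgeR adjusted p = 0.0578, 0.0445 with the animal as a block, and 0.0336 and 0.0420 without subcutaneous replicate 1 or 4). GAD1 and GAD2, glutamate decarboxylases related to GADL1, had no values and were not analysed here. DPYD, which breaks down pyrimidines towards beta-alanine, measured 99.5 ± 31.2 against 129.3 ± 36.1 CPM (edgeR adjusted p = 0.344).

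Of 8 leucine-rich repeat relatives of LRRC30, 3 rose and 0 fell (the same counts at an unadjusted p under 0.05 by edgeR and by DESeq2), with a median of 0.12. LRRC14B rose from 1.20 ± 1.01 to 13.2 ± 11.7 CPM and LRRC10B from 1.17 ± 0.91 to 11.1 ± 2.57 CPM (edgeR adjusted p = 0.0154 and 0.00321). LRRC14B varied 7.64-fold over the intramuscular libraries, and LRRC10B 1.73-fold. LRRC20 rose from 11.3 ± 2.21 to 31.0 ± 24.2 CPM (edgeR adjusted p = 0.0368), and kept its call only without intramuscular replicate 4 or 5. Without any other single library its adjusted p was 0.0520 to 0.0798. RSU1 and LRRC28 measured 85.3 ± 4.58 against 81.1 ± 10.4 CPM and 76.5 ± 22.9 against 86.5 ± 25.6 CPM, with edgeR adjusted p of 0.751 and 0.654.

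The list of other striated muscle genes held most of the rises. Of 26 tested, 19 were higher and 0 lower by edgeR (22 and 0 at an unadjusted p under 0.05, 21 and 0 by DESeq2), with a median of 3.83. This median was the same with the 4 genes that had no subcutaneous count set at their fold over the floor of 3 counts. HSPB7, a small heat shock protein of striated muscle, rose from 2.77 ± 1.30 to 310.2 ± 273.4 CPM and APOBEC2, a muscle member of the cytidine deaminase family, from 3.42 ± 2.36 to 189.2 ± 183.0 CPM (edgeR adjusted p = 7.62e-05 and 0.000239). NMRK2, a nicotinamide riboside kinase, measured 256.3, 140.3, 187.0, 85.9 and 132.7 CPM in intramuscular replicates 1 to 5. Its 2.98-fold range was narrower than the 6.27- to 9.30-fold ranges above. MYOC and KLHL31 measured 285.6 ± 61.4 against 308.6 ± 98.9 CPM and 50.1 ± 25.8 against 29.0 ± 17.8 CPM (edgeR adjusted p = 0.794 and 0.194, and 0.0371 for KLHL31 without subcutaneous replicate 4).

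**Figure D3:**
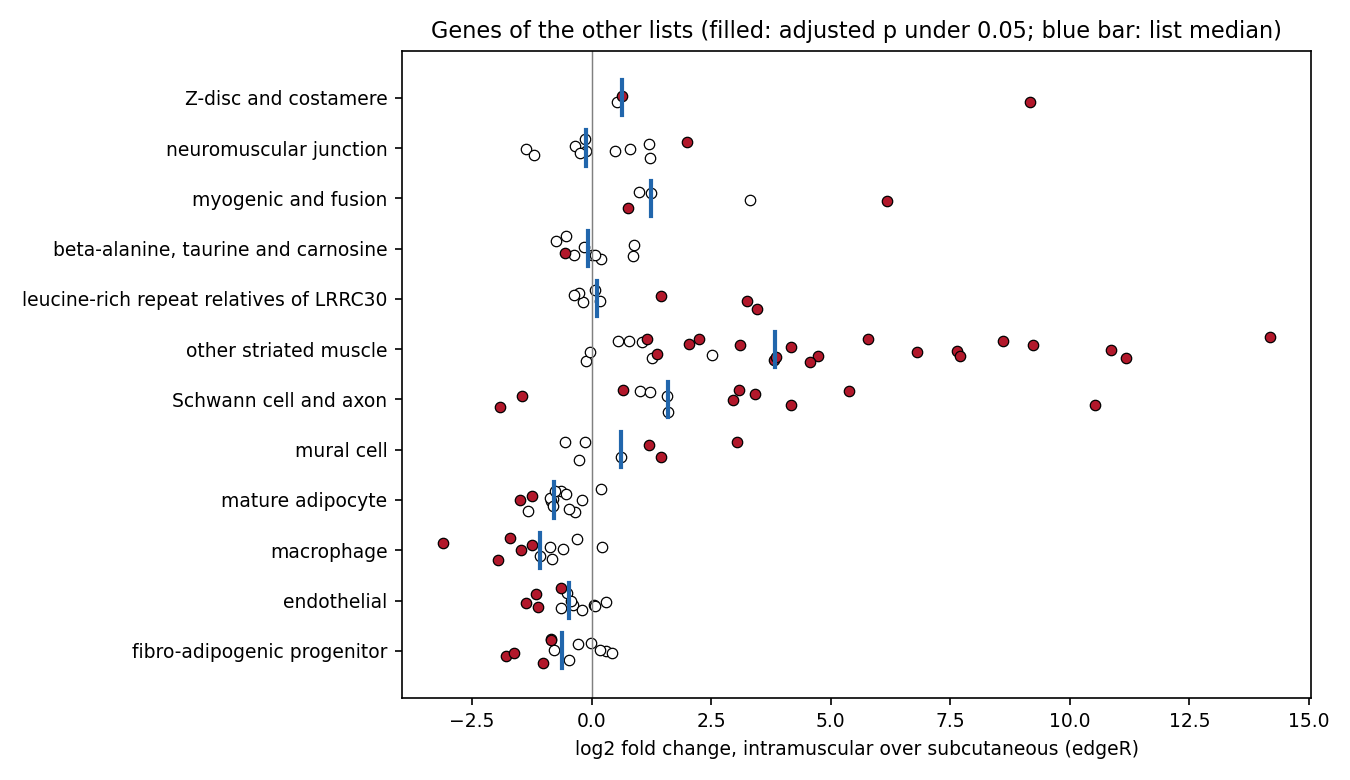
Log2 fold change (edgeR, intramuscular over subcutaneous) of each tested gene of the lists, 1 point per gene, filled where the adjusted p was under 0.05, with the list median as a blue bar. Values above about 9 belong to genes with few or no subcutaneous counts and depend on the prior count of edgeR's own fit. The other striated muscle list reaches 14.18 and has a median of 3.83, while the neuromuscular junction and beta-alanine lists centre near 0.

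Markers of other cell types were set beside the 6 genes. The mature adipocyte list (14 of 16 genes with values) summed to 7684, 17244, 17585, 24847 and 27249 CPM in intramuscular replicates 1 to 5, lowest in replicate 1, where the muscle transcripts were highest, and highest in replicates 4 and 5, where they were lowest. Its subcutaneous sums were 26519 to 41244 CPM, and it had 0 genes higher and 2 lower by edgeR (0 and 7 at an unadjusted p under 0.05, 0 and 5 by DESeq2, 0 and 5 in the fit blocked by animal, and 0 and 0 without intramuscular replicates 1 and 3). The Schwann cell and axon list (13 of 15 genes) had 7 higher and 2 lower, and 6 and 0 without intramuscular replicates 1 and 3. Its sum was 547 to 928 CPM in intramuscular and 699 to 1510 CPM in subcutaneous fat, and S100B alone made up 149 to 464 and 512 to 1396 CPM of it. Without S100B, a sum added after the values were seen, the list stood at 398, 241, 304, 473 and 464 CPM in intramuscular replicates 1 to 5 and 115 to 195 CPM in subcutaneous fat. That sum was lowest in replicates 2 and 3, and so did not follow the order of the muscle transcripts. The mural cell list (7 of 11) summed to 2099 to 2676 CPM in intramuscular and 1702 to 2515 CPM in subcutaneous fat, with 3 higher and 0 lower by edgeR (4 and 1 at an unadjusted p under 0.05 and by DESeq2).

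The 2 genes of highest level in each list are given as CPM in intramuscular against subcutaneous fat. In the adipocyte list, THRSP, a regulator of fat synthesis, measured 3550 ± 1979 against 5149 ± 2400 CPM, and FABP4, a fatty acid carrier, 2496 ± 743 against 5952 ± 1874 CPM. In the Schwann cell list, S100B measured 329 ± 117 against 908 ± 401 CPM and the myelin protein gene PMP22 172 ± 18.9 against 109 ± 34.8 CPM. In the mural list, MCAM measured 1105 ± 181 against 1323 ± 233 CPM and NOTCH3 449 ± 132 against 294 ± 72.9 CPM. The top Schwann cell genes thus lay on opposite sides. In the macrophage list, the complement gene C1QA measured 37.1 ± 7.03 against 121 ± 55.6 CPM and the receptor CSF1R 40.7 ± 18.2 against 85.6 ± 46.9 CPM. In the endothelial list, VWF measured 688 ± 129 against 1077 ± 337 CPM and EGFL7 249 ± 55.3 against 557 ± 189 CPM. In the progenitor list, the collagen gene COL1A1 measured 2694 ± 482 against 4652 ± 2207 CPM and decorin (DCN) 1096 ± 219.5 against 1107 ± 409 CPM. All 6 of these means were lower in intramuscular fat, DCN by far less than its SD. COL1A1 and CSF1R were lower by less than their subcutaneous SD. C1QA and EGFL7 were called by edgeR (adjusted p = 0.00539 and 0.0141). CSF1R, VWF, COL1A1 and DCN were not (edgeR adjusted p = 0.132, 0.0847, 0.126 and 0.978).

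The macrophage, endothelial and fibro-adipogenic progenitor lists had values for 11 of 12, 12 of 12 and 12 of 12 genes. They held 0 higher genes each by edgeR (0 also at an unadjusted p under 0.05 and by DESeq2), and 5, 4 and 4 lower. Without intramuscular replicates 1 and 3 the lower counts were 0, 1 and 2, and without intramuscular replicate 3 that of the macrophage list was 3. Their sums ranged 2.06-, 1.28- and 1.29-fold over the intramuscular libraries, against 9.30-fold for ENSBTAG00000052709. In subcutaneous fat the progenitor sum was 10490, 5598, 4488, 9338 and 11304 CPM in replicates 1 to 5, lowest in replicates 2 and 3, where CHRNA1 was highest. The part of any of these cell types in the levels of the 6 genes was not tested.

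**Figure D4:**
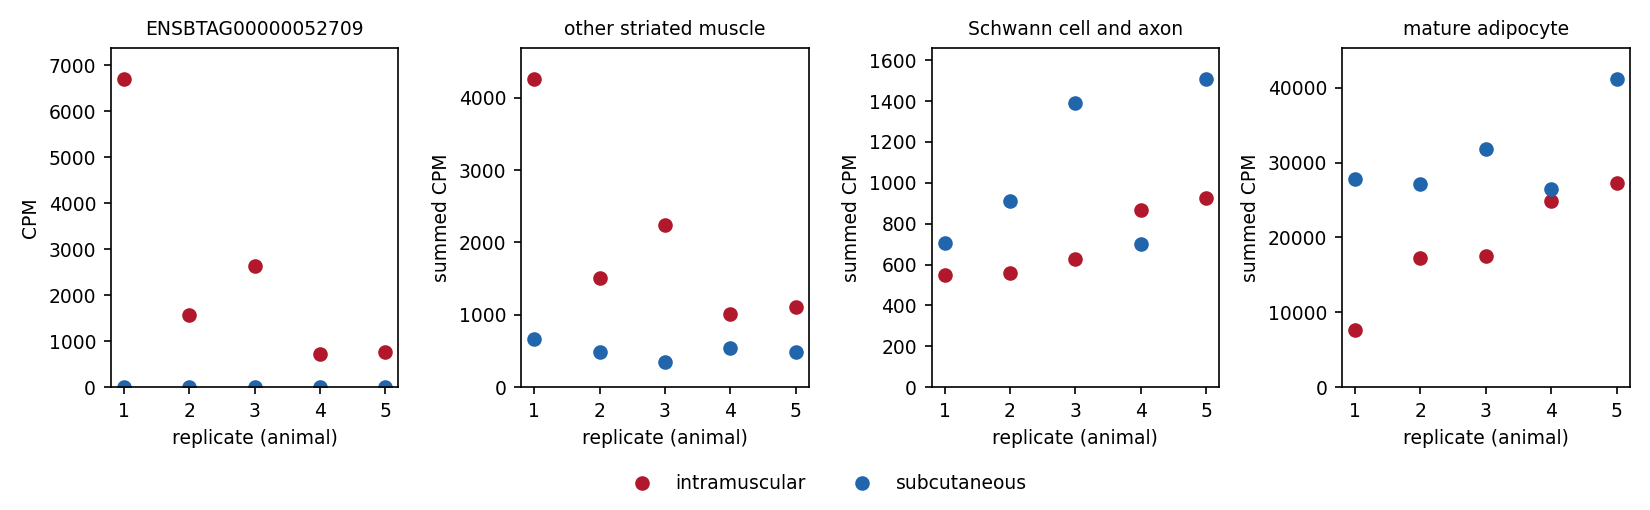
CPM of ENSBTAG00000052709 and summed CPM of 3 lists (linear axes from 0) in each library against replicate number, red for intramuscular and blue for subcutaneous fat. In intramuscular fat the adipocyte sum is lowest in replicate 1 (7684 CPM), where ENSBTAG00000052709 (6708 CPM) and the other striated muscle list (4264 CPM) are highest.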

How the data were processed

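The libraries were made from fragmented total RNA with random priming and dUTP in the second strand, then amplified by 10 PCR cycles and read from both ends, per the labels' protocols. The submitters' processing notes name Trimmomatic 0.39 and STAR 2.7.11a, as well as featureCounts 2.0.2 and DESeq2 1.42.0. Neither the genome build nor the strand setting is stated in these sources. The authors deposited raw counts per gene and library. Per the file headers, the deposited table adds, for each depot, a mean of its raw counts by the authors (not whole numbers, so entered as a score), the mean of size-factor-scaled counts over all libraries (entered as a signal), a log2 fold change and p-values, none of which is used here.

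The fit over all genes was edgeR 4.0.16's quasi-likelihood test in R 4.3.3 (two-sided, TMM scaling, filterByExpr on depot, Benjamini-Hochberg adjustment, threshold 0.05), which kept 12521 of 12674 genes. DESeq2 1.42.0 was an alternative. On simulated counts for this comparison (12380 genes tested), the test called 35.0% of the 2-fold and 80.0% of the 4-fold changes, with 4.96% of calls false. The simulation changed far fewer genes than were called in the data, equally in both directions. It drew each library independently, with no effect of the animal. Its rates hold for that setting and were not tested for the data. P-values reflect the spread between these 5 animals' libraries. Same-numbered libraries deviated together (correlations 0.102 to 0.237 across genes), and the design text gives both depots to the same heifers, so the numbers pair the samples. The main fit held the depot only and did not use this pairing, and the fit with the animal as a block was an alternative. Log2 CPM used a prior count of 2. Intervals and floors (3 counts) cover counting error only.

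The members and lists were chosen with earlier results of these data known. Named genes were the 6 members, from each muscle list the 4 called and the 2 other tested genes of highest intramuscular CPM, the 3 genes most like each member and its nearest neighbours, paralogs with values, and the 2 genes of highest CPM in each list of another cell type over both depots, given as CPM. Alternatives were 2 other scalings, no filter, a replicate block, DESeq2, a prior count of 0.5, each library left out, and intramuscular replicates 1 and 3 left out. A few genes that the rule names are not reported here. Promoters were not analysed here.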

Additional observations from a re-analysis of the deposited data

Results flagged for a closer look

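Of 46 groups of 5 values checked, 3 held a library set far from the other 4 (Dixon's test), where chance gives about 1 in 20. For GADL1 in subcutaneous fat, at 0.235 CPM in replicate 4 from 4 counts, the other 4 libraries were at 0, so any count at all in replicate 4 would have been marked. The summed neuromuscular junction list in intramuscular fat was at 379.6 CPM in replicate 1, against 246.1 to 283.0 CPM in the others. The summed myogenic and fusion list in intramuscular fat was at 435 CPM in replicate 1, against 126.8 to 209.0 CPM in the others. JSRP1 alone, a gene of mature fibres, made up 280.7 CPM of it in replicate 1 and 43.7 to 87.0 CPM in the others.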

How the results depend on the processing

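Leaving out intramuscular replicate 1 took the means of ENSBTAG00000052709, SYNPO2L, GADL1 and MYMK from 2477, 145, 83.4 and 0.414 to 1420, 93.3, 53.9 and 0.237 CPM, and without replicates 1 and 3 LRRC30 and CHRNA1 went from 15.7 and 24.9 to 9.64 and 15.7 CPM. Over all genes 845 were higher and 688 lower. With plain totals these were 1149 and 330, so that 77.7% of calls were higher in place of 55.1%, as the median log2 fold change moved by 0.17. By DESeq2 they were 1369 and 1171, with the animal as a replicate block 1013 and 871 (1385 of the 1533 calls shared), without intramuscular replicates 1 and 3 they were 306 and 67, and with 1 library left out 494 to 1008 and 263 to 887. Of the listed striated muscle genes, 27 higher and 1 lower, the lower count was 0 with plain totals and without intramuscular replicates 1 and 3 (17 higher), 2 with the block (29 higher), 2 by DESeq2 and 0 to 2 with 1 library left out (21 to 27 higher). The block changed the calls of CDH15, ADGRB1, CNDP2, CHN1 and ADAMTSL2, given above, and of no other named gene. Without intramuscular replicates 1 and 3, CAPZA2, LRP4, MEF2A, CSAD, LRRC20 and LRRC14B lost their calls (edgeR adjusted p = 0.172, 0.196, 0.130, 0.145, 0.252 and 0.134). Log2 fold changes near 0 changed sign: with plain totals AGRN 0.025, LRRC28 0.027, MYOC 0.052, SEC24C 0.12, PTPRM 0.0091 and PLEKHA3 0.052, and without intramuscular replicates 1 and 3 SEC24C 0.017. With 1 library left out AGRN ranged from -0.30 to 0.0056 and MYOC from -0.28 to 0.015 (both highest without subcutaneous replicate 1), CHRNA5 from -0.92 to 0.077 (without intramuscular replicate 4) and USP54 from -0.020 (without subcutaneous replicate 5) to 0.46. None of these sign changes passed the threshold. With a prior count of 0.5 the distance of HOXD1 from CHRNA1 was 0.16 (rank 4) and that of GJC3 from MYMK 0.64. The cause of these changes was not tested. MYMK rests on 26 and 74 counts per depot, and the subcutaneous levels of SYNPO2L, GADL1 and ENSBTAG00000052709 on 4, 4 and 20, so depth limits their ratios.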
